A study of Danio rerio with 4 samples.

Results

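The genes described are 8 genes used to follow primitive myeloid cells, the first macrophages and neutrophils of the zebrafish embryo: spi1b, cebpa, cebpb, csf1ra, lcp1, coro1a, lyz and mpx. They were chosen by symbol, and all 8 were found among the 28697 genes of the deposited tables, with 18 annotated transcripts between them. Whole embryos of Danio rerio were injected at the one-cell stage with 2 nl holding 8 ng of morpholino, an antisense oligomer that blocks the translation or splicing of a target mRNA. The 4 groups were a control morpholino (8 ng) and rbm14a plus rbm14b morpholinos (4 ng each), each collected at 10 and at 24 hours post fertilization (hpf). Every embryo, controls included, also received 300 pg of GFP mRNA. Each group was 1 library from a pool of 50 embryos, so no value below has a replicate check and no p-value was computed. The labels name no uninjected, rescue or further morpholino group, and give no mode of action, translation block or splice block, for the rbm14 morpholinos.

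Primitive myelopoiesis in zebrafish starts in the lateral mesoderm after gastrulation, where the ETS factor Pu.1, encoded by spi1b, commits cells to the myeloid fate while Gata1 favours the erythroid one. C/EBP factors then act with Pu.1 on genes of granulocytes and macrophages. The committed cells turn on genes for an actin-rich, migratory cell body, among them lcp1 (L-plastin, an actin-bundling protein) and coro1a (coronin, an actin-binding protein). They also turn on genes for antimicrobial products, among them lyz (lysozyme) and mpx (myeloperoxidase of neutrophil granules). Several of these genes are used outside the myeloid lineage as well: csf1ra, the receptor for Csf1 and Il34, also acts in yellow pigment cells of zebrafish, and in mammals the orthologs of cebpa and cebpb also act in liver and fat.

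Levels are in TPM, a transcript abundance per length scaled to a fixed total per library, summed over the transcripts of a gene. TPM keeps no sequencing depth, so library depth is unknown here, and neither counting intervals nor detection limits can be given. Ratios between libraries are log2 values of TPM + 0.5 after scaling. The log2 shift removed was −0.25 for rbm14 over control at 10 hpf and 0.64 at 24 hpf. It was −0.52 for 24 over 10 hpf in the control and 0.37 in the rbm14 libraries. The size rule used to call a gene asked for a 2-fold ratio or more (a log2 ratio of 1) and for 5 TPM or more in the higher library. Without rescaling, the share of higher genes among all genes past the rule went from 39.1% to 18.7% at 10 hpf and from 44.2% to 90.8% at 24 hpf. It went from 56.2% to 38.2% between the control stages and from 61.6% to 73.0% between the rbm14 stages. No ratio is given for any of the 8 genes where a library lists it at 0 TPM. The targeted genes were at 170 (rbm14a) and 28.8 TPM (rbm14b) in control embryos and at 254 and 19.3 TPM in rbm14 morphants, the embryos given the rbm14 morpholinos, at 10 hpf. At 24 hpf they were at 70.5 and 21.0 TPM and at 82.7 and 28.2 TPM, levels that do not measure a block of translation.

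The set held very unequal levels. In the control library at 10 hpf the order was cebpb (908 TPM), cebpa (179 TPM), lcp1 (70.6 TPM), then lyz (0.53 TPM), coro1a (0.15 TPM), mpx and spi1b (0.13 TPM each) and csf1ra (0.07 TPM). At 24 hpf in the control it was cebpb (278 TPM), cebpa (93.1 TPM), lyz (14.1 TPM), mpx (5.65 TPM), coro1a (4.77 TPM), lcp1 (1.38 TPM), spi1b (1.09 TPM) and csf1ra (0.28 TPM). With 1 library a group, neighbours in either order have no spread against which to be told apart. The C/EBP genes made up 93.1% to 97.4% of the summed TPM of the 8 genes in every library, so a sum over the set reports on those genes and hardly on the others. In bulk embryos, fewer cells of a type and less RNA per cell cannot be told apart.

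**Figure D1:**
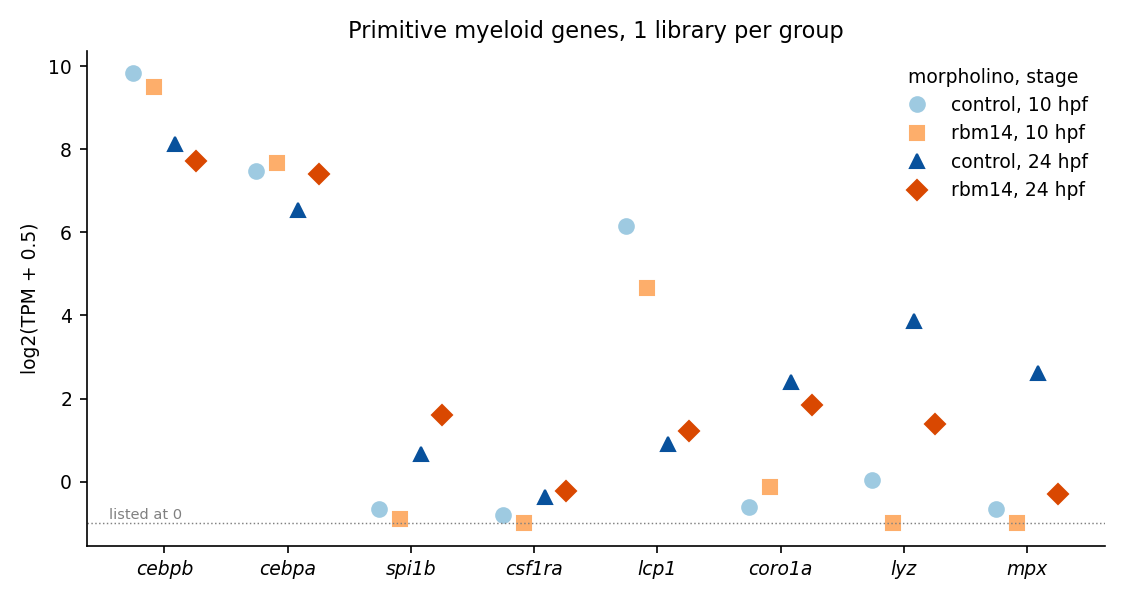
Level of each of the 8 genes in the 4 libraries, as log2(TPM + 0.5) on the y axis, with 1 point per library and no error bars because each group is 1 library. The C/EBP genes are high at both stages and lcp1 is high at 10 hpf, while lyz and mpx are high in the control library at 24 hpf (14.1 and 5.65 TPM). The dotted line marks genes listed at 0.

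The label of the set was checked against these levels. At 10 hpf the 5 genes spi1b, csf1ra, coro1a, lyz and mpx were each at or below 0.53 TPM in both libraries. The genes cebpa, cebpb and lcp1, by contrast, were already at 24.9 to 908 TPM there. The 10 hpf reads of these 3 genes therefore came with next to no RNA of the genes more restricted to myeloid cells, and at that stage the data do not bear out a myeloid label for them.

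At 24 hpf the question was how blood cell genes differ between the rbm14 and control morpholinos once the first myeloid cells are present. The antimicrobial genes lyz and mpx were far lower in the rbm14 library, the transcription factor genes spi1b and cebpa were not, and cebpb lay just past the 2-fold limit. At this stage too, cebpa (93.1 TPM in control, 167 TPM in rbm14) and cebpb (278 and 208 TPM) stood far above spi1b (1.09 and 2.52 TPM). Which cells the cebpa and cebpb RNA came from was not measured, so those levels cannot be assigned to myeloid cells. Of the 8 genes 4 reached 5 TPM at this stage. None of these was past the size rule as higher and 3 were lower (mpx, lyz and cebpb), where 7.01% of 9121 genes reaching 5 TPM were higher and 8.85% lower. Among the 5 genes not called, cebpa lay between and spi1b, csf1ra, lcp1 and coro1a did not reach 5 TPM in either library. The genes mpx and lyz reached 5 TPM only through the control library, so they could be called as lower only.

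The neutrophil enzyme gene mpx stood at 5.65 TPM in control embryos and 0.31 TPM in rbm14 morphants at 24 hpf. The rbm14 level was 5.49% of the control level in deposited TPM, and the scaled ratio was −3.34, or 10.1-fold lower. Of the 9121 genes measured, 29 had a ratio as low or lower. Because the rbm14 value lies below the 0.5 TPM added, this ratio depends on that choice: it was −4.36 with 0.1 TPM added and −1.20 with 5 TPM.

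The lysozyme gene lyz, whose product breaks bacterial cell walls, stood at 14.1 TPM in control embryos and 2.11 TPM in rbm14 morphants. The rbm14 level was 14.9% of the control level, and the ratio was −3.05 (8.29-fold lower). Only 40 of the measured genes had a ratio as low or lower. Unlike mpx it was clearly above the added 0.5 TPM in both libraries.

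The transcription factor gene spi1b, at the head of the myeloid programme, was low in both libraries, at 1.09 TPM in control embryos and 2.52 TPM in rbm14 morphants (ratio 0.44). Its deposited level in the rbm14 library was thus 231% of the control level, the opposite direction from lyz and mpx. Levels this low, with unknown depth, carry an error that the files do not give.

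The C/EBP genes differed from each other. The factor gene cebpa stood at 93.1 TPM in control embryos and 167 TPM in rbm14 morphants (ratio 0.21, and 0.84 without rescaling). The related factor gene cebpb stood at 278 and 208 TPM (ratio −1.06, 2.08-fold lower). It was no longer past the size rule without rescaling (−0.42) or with a loess correction (−0.63). Within a library, where no scaling enters, cebpb was 2.99 times cebpa in the control and 1.24 times in the rbm14 library at 24 hpf. The same quotient was 5.08 and 3.57 at 10 hpf, so it was lower in the rbm14 library at both stages.

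The cytoskeletal gene coro1a stood at 4.77 TPM in control embryos and 3.06 TPM in rbm14 morphants. Its ratio of −1.13 (−0.57 without rescaling) was beyond 2-fold, but its higher value lay just under the 5 TPM limit and it was not called. Of the actin-bundling gene lcp1, 1.38 and 1.83 TPM were measured (−0.18, and 0.31 without rescaling). The receptor gene csf1ra was near the bottom of the range at 0.28 and 0.35 TPM (−0.12, and 0.12 without rescaling), and the sign for either gene thus follows the scaling. Just inside the limits were cebpb by its ratio (−1.06 with 278 TPM) and mpx by its control level (5.65 TPM, a sum of transcripts at 3.59 and 2.06 TPM). Just outside was coro1a at −1.13 with 4.77 TPM.

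**Figure D2:**
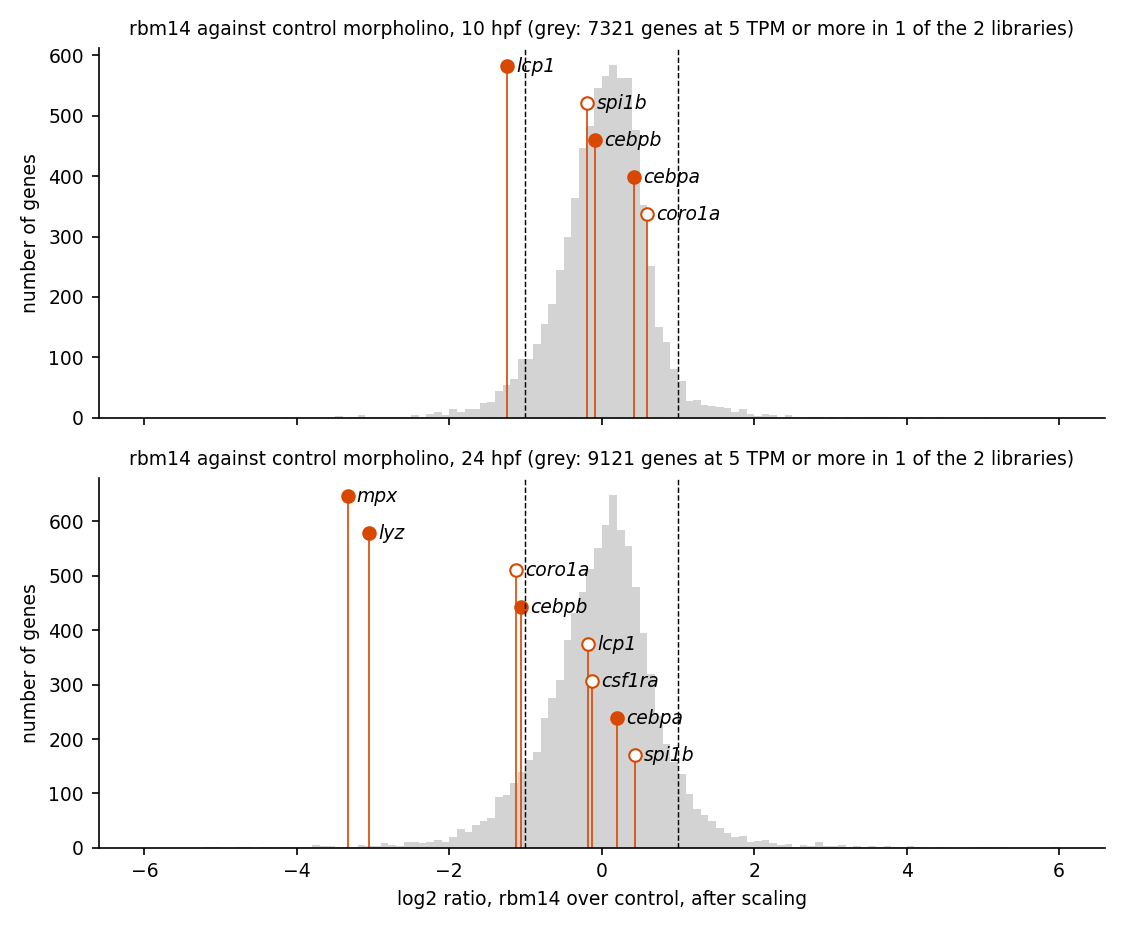
Number of genes (y axis) by log2 ratio of the rbm14 over the control library (x axis) at 10 hpf (top) and 24 hpf (bottom), with the 8 genes marked by lines whose height has no meaning. Filled points reach 5 TPM in 1 of the libraries, open points do not, genes listed at 0 are left out, dashed lines mark 2-fold, and ratios beyond 6 are drawn at 6. At 24 hpf mpx (−3.34) and lyz (−3.05) stand in the far left tail while cebpa (0.21) and spi1b (0.44) lie in the body of the distribution.

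The same TPM values were also written as quotients of 2 genes within a library, which no scaling enters. They are arithmetic on the levels above and no separate support, and mpx and lyz were taken as numerators because they had the lowest ratios of rbm14 over control among the 8 genes. The quotient of mpx to spi1b was 5.18 in the control and 0.123 in the rbm14 library, a difference of 42.1-fold. The quotient of lyz to spi1b was 13.0 and 0.837 (15.5-fold). Set against coro1a, which is expressed across leukocytes, mpx went from 1.18 to 0.101 (11.7-fold) and lyz from 2.96 to 0.69 (4.30-fold). Against lcp1 the differences were 24.2-fold for mpx and 8.89-fold for lyz. The smallest difference between lyz or mpx and another of the 8 genes was that between themselves, since mpx was 0.40 times lyz in the control and 0.147 times in the rbm14 library (2.72-fold). With 0.5 TPM added to both genes the mpx quotients differed less between the libraries, by −3.85 on the log2 scale against spi1b and by −2.36 against coro1a, in place of −5.40 and −3.55. The lyz quotients to the other 6 genes differed by −2.10 to −3.95 between the libraries, and by −1.92 to −3.41 with 0.5 TPM added.

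**Figure D3:**
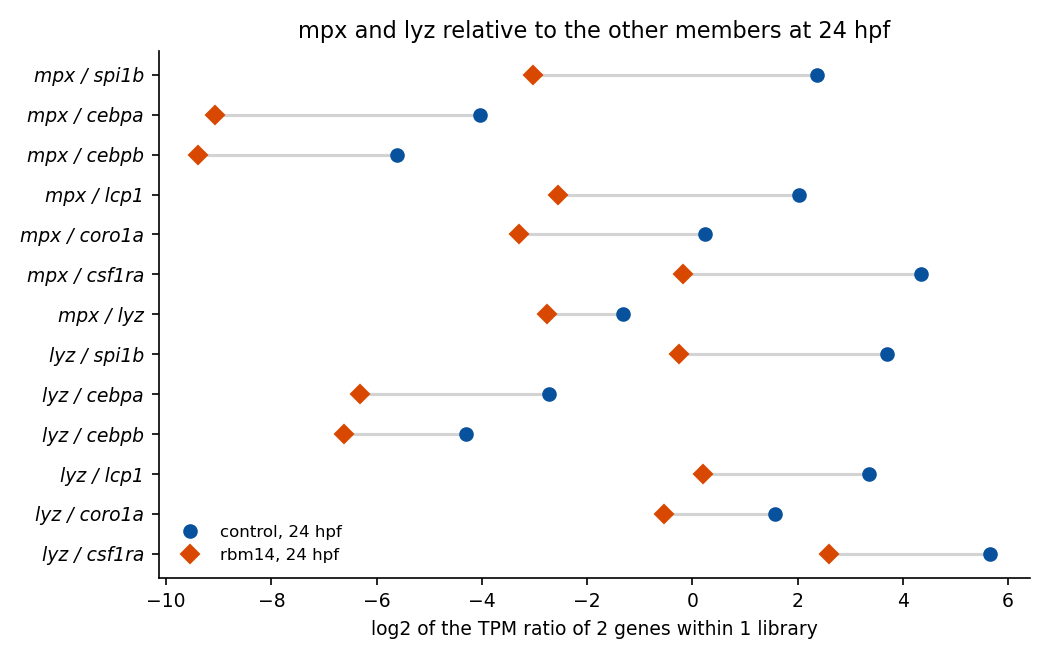
TPM quotient of mpx or lyz to another of the 8 genes within 1 library at 24 hpf, on a log2 x axis, with the control library as circles and the rbm14 library as diamonds. The distance between the points of a pair runs from 2.72-fold for mpx over lyz to 42.1-fold for mpx over spi1b, and its direction follows from the choice of mpx and lyz as the genes with the lowest ratios of rbm14 over control.

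The transcripts behind the sums were not alike in the libraries. Of 5 mpx transcripts, ENSDART00000111058 had 3.59 TPM in the 24 hpf control and was listed at 0 in the rbm14 library. The other detected one, ENSDART00000043961, had 2.06 and 0.31 TPM. Both detected transcripts were thus lower, and the remaining 3 were listed at 0 in all 4 libraries. For spi1b, ENSDART00000036729 had 0.55 and 1.07 TPM, ENSDART00000126831 had 0.22 and 1.31 TPM, and ENSDART00000173776 had 0.31 and 0.13 TPM. The larger spi1b sum in the rbm14 library thus came mostly from ENSDART00000126831, which made up 20.2% of the gene in the control and 52.0% in the rbm14 library. The tool that divided reads between transcripts is not given in the sources used here, and shares of transcripts below about 1 TPM are uncertain.

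At 10 hpf, the end of gastrulation, 1 of the 8 genes was past the size rule. The actin-bundling gene lcp1 stood at 70.6 TPM in control embryos and 24.9 TPM in rbm14 morphants (ratio −1.24, 2.36-fold lower), where 3.57% of 7321 genes were higher and 5.56% lower. Of the 7321 genes measured, 226 had a ratio as low or lower. The genes cebpa (179 and 201 TPM, ratio 0.42) and cebpb (908 and 720 TPM, ratio −0.08) lay between. The remaining 5 genes did not reach 5 TPM: spi1b had 0.13 and 0.04 TPM and coro1a 0.15 and 0.42 TPM. The genes mpx (0.13 TPM), lyz (0.53 TPM) and csf1ra (0.07 TPM) were listed at 0 in the rbm14 library.

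The lcp1 difference at 10 hpf was mostly in 1 transcript, as far as the deposited split between transcripts goes. ENSDART00000039235 had 42.7 TPM in control embryos and 4.15 TPM in rbm14 morphants, while ENSDART00000169033 had 28.0 and 20.7 TPM. The first made up 60.4% of the gene in the control and 16.7% in the rbm14 library. With the most abundant transcript over the libraries, ENSDART00000169033, in place of the sum, the lcp1 ratio was −0.18 and the gene was not past the rule. That transcript was first by mean TPM only by a small margin, and ENSDART00000039235 was the higher one in both control libraries. The lost call thus rests on that choice. At 24 hpf ENSDART00000039235 had 0.73 and 0.80 TPM, and ENSDART00000169033 had 0.65 and 0.55 TPM.

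**Figure D4:**
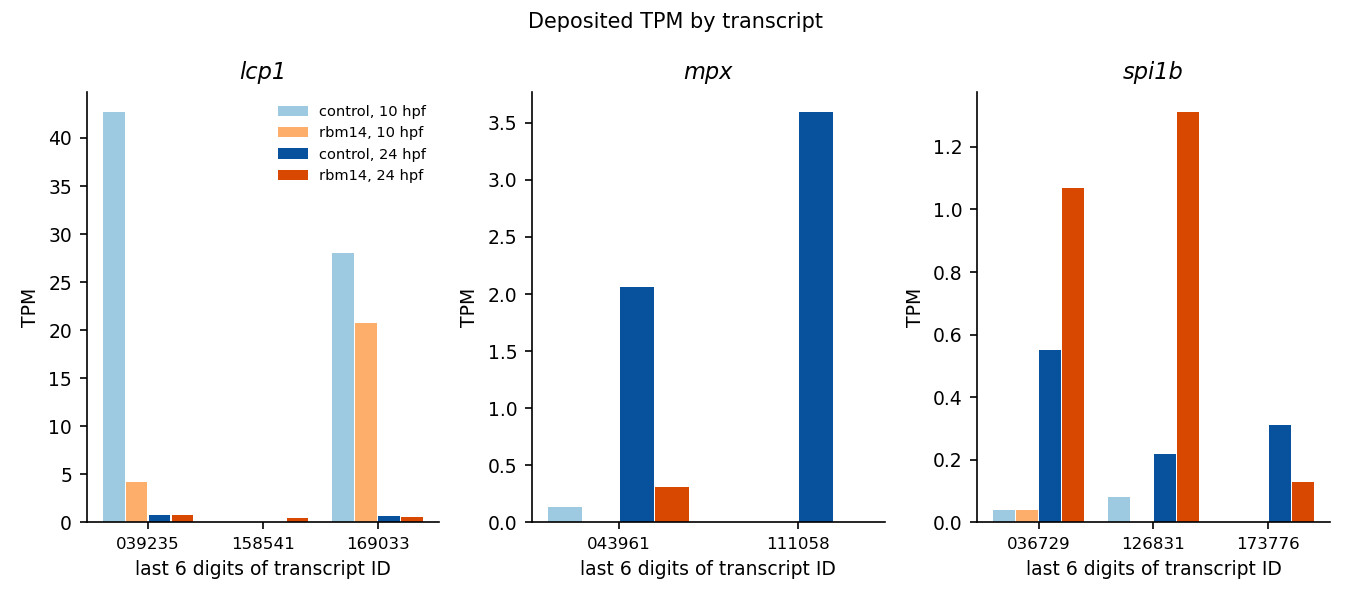
Deposited TPM (y axis, from 0, a different range in each panel) of the transcripts of lcp1, mpx and spi1b above 0.02 TPM in at least 1 library, with 1 bar per library and no error bars. At 10 hpf the lcp1 transcript ENSDART00000039235 has 42.7 TPM in control embryos against 4.15 TPM in rbm14 morphants, next to 28.0 and 20.7 TPM for ENSDART00000169033. Both detected mpx transcripts are lower in the rbm14 library at 24 hpf.

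From 10 to 24 hpf in the control libraries 5 of the 8 genes reached 5 TPM, and 2 were higher and 2 lower. Counts this small do not stand apart from the shares of all genes. The genes mpx (0.13 to 5.65 TPM, ratio 3.58) and lyz (0.53 to 14.1 TPM, 18.5-fold) were past the rule as higher, where 29.6% of 8784 genes were. Both reached 5 TPM only through the control library at 24 hpf, so here they could be called as higher only. Their calls as lower with the rbm14 morpholinos at 24 hpf rest on that same library. The genes lcp1 (70.6 to 1.38 TPM, 27.6-fold) and cebpb (908 to 278 TPM, 2.27-fold) were past it as lower, where 23.1% were. For lcp1 only 55 of the 8784 genes had a ratio as low or lower. It reached 5 TPM only through the 10 hpf library, so it could be called as lower only. The coronin gene coro1a went from 0.15 to 4.77 TPM (ratio 3.31) and spi1b from 0.13 to 1.09 TPM (1.57), both under 5 TPM at either stage, as was csf1ra (0.07 and 0.28 TPM). Relative to the other genes cebpa had a ratio of −0.42.

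From 10 to 24 hpf in the rbm14 libraries, which share no library with the control pair, lcp1 (24.9 to 1.83 TPM, 13.6-fold) and cebpb (720 to 208 TPM, 4.45-fold) were again lower, where 22.1% of 9551 genes were. Only 3 of the 8 genes, cebpa, cebpb and lcp1, reached 5 TPM in this pair, and none of these was past the rule as higher, where 35.4% of genes were. Here too lcp1 reached 5 TPM only through the 10 hpf library and could be called as lower only. The genes spi1b, coro1a, csf1ra, lyz and mpx could not be called in this pair, whatever their ratio. The antimicrobial genes went from a listed 0 to 2.11 TPM for lyz and to 0.31 TPM for mpx. The regulator spi1b went from 0.04 to 2.52 TPM (ratio 2.32), coro1a from 0.42 to 3.06 TPM (1.71) and csf1ra from a listed 0 to 0.35 TPM, while cebpa had a ratio of −0.63. The levels of spi1b, coro1a, csf1ra, lyz and mpx were thus above their 10 hpf levels in both treatments, and for lyz and mpx the 24 hpf level was much lower with the rbm14 morpholinos.

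Other genes of the myeloid pathway were taken from 5 lists of regulators, cytokines and receptors, neutrophil, macrophage and pan-leukocyte genes, of which 64 matched the deposited symbols. At 24 hpf 14 of them reached 5 TPM, and 1 was past the rule as higher and 2 as lower, where 7.01% and 8.85% of all genes were, and counts this small do not stand apart from those shares. The higher one was the collagenase gene mmp13a (0.30 TPM in control embryos, 7.34 TPM in rbm14 morphants, ratio 2.87). The lower ones were ctsk, a cathepsin gene (7.39 and 4.17 TPM, −1.34), and arpc1b, a subunit of the actin-nucleating Arp2/3 complex (10.4 and 4.61 TPM, −1.69). Over the 37 genes with at least 1 TPM in either library, 19 ratios were above and 18 below 0, with a median of 0.05. The median over all 14909 genes measured that way was 0.08.

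The lists differed in their members' values at 24 hpf. Of 13 other regulators only 5 reached 5 TPM and none of these was past the rule (median 0.14 over 8 genes, and 0.71 without rescaling). Among them irf8, a macrophage fate factor, had 2.09 and 2.47 TPM (−0.33), and the progenitor factor myb had 10.4 and 19.6 TPM (0.27). The cebpd gene, of the same family as cebpa and cebpb, had 103 and 139 TPM (−0.21), and cebpg had 26.2 and 43.9 TPM (0.10). Of 10 cytokine and receptor genes none reached 5 TPM. The Csf1 receptor ligand gene il34 had 0.71 and 3.44 TPM (1.23), and the granulocyte cytokine gene csf3b 0.18 and 3.48 TPM (2.18). The csf3b receptor gene csf3r had 0.20 and 0.41 TPM (0.14), and the csf1ra paralog csf1rb 0.10 and 0.14 TPM (−0.03). The genes given for the regulator, cytokine, neutrophil and macrophage lists were picked after their values were seen.

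Of 14 other neutrophil genes, the 10 at 1 TPM or more in either library had a median of −0.19, and of 0.28 without rescaling. Among them lect2l had 2.44 and 0.24 TPM (−2.36), while npsn had 1.24 and 1.84 TPM (−0.05) and srgn 1.25 and 1.03 TPM (−0.64). Of 12 macrophage genes, the 9 at 1 TPM or more had a median of −0.47, and of 0.17 without rescaling or with loess. Among them mfap4 had 3.88 and 0.19 TPM (−3.03), while mpeg1.1, a pore-forming protein gene of macrophages, had 3.89 and 3.94 TPM (−0.55). In the macrophage list ctsk (−1.34) and cxcr3.2 (−0.93) were low as well, while slc7a7, havcr1, cmklr1 and cd63 had ratios above 0. The gene mpeg1.1 had nearly the same control level as mfap4 without its low ratio. In the neutrophil list npsn and srgn had lower control levels than lect2l, so they do not compare genes of similar level. Of the 15 pan-leukocyte genes, the 6 at 1 TPM or more in either library had a median of −0.81, and of −0.27 without rescaling.

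**Figure D5:**
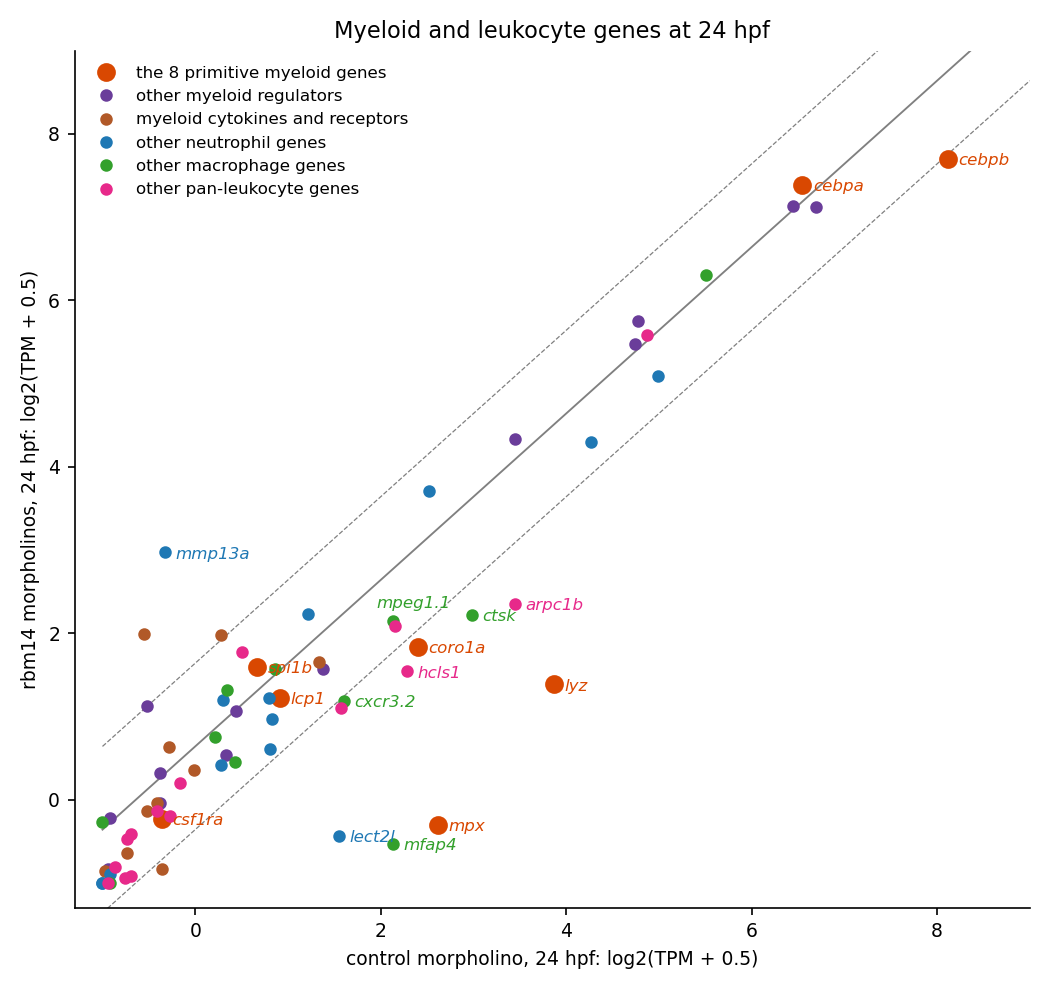
Level at 24 hpf in the rbm14 (y axis) against the control library (x axis), both as log2(TPM + 0.5), for the 8 genes and 5 lists of other myeloid and leukocyte genes, with apoeb left out for its high level. The solid line marks the shift removed by the scaling and the dashed lines 2-fold from it, which is exact only well above 0.5 TPM. The genes mpx, lyz, mfap4 and lect2l lie farthest below the lower dashed line, with ratios of −3.34, −3.05, −3.03 and −2.36. They are not alone there. Other genes below that line include cebpb, coro1a, the macrophage list genes ctsk and cxcr3.2, and the pan-leukocyte list genes arpc1b, hcls1 and fcer1gl. Of these, cxcr3.2 (−0.93) and fcer1gl (−0.99) had ratios just under 2-fold and lie below the line only because it is inexact at such levels.

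At 10 hpf 11 of the 64 genes reached 5 TPM, and 3.57% of all genes were higher and 5.56% lower. Of the 11, 1 was higher, rac2, a GTPase gene of leukocytes (3.30 and 6.87 TPM), and 1 was lower, the tetraspanin gene cd63 (11.3 and 3.13 TPM). In the control from 10 to 24 hpf 13 of the 64 reached 5 TPM, with 8 higher and 1 lower, the NADPH oxidase subunit gene cyba (124 and 18.8 TPM). Over the 29 genes with at least 1 TPM, 24 had ratios above 0 (median 1.90, against 0.21 over all 14263 genes). In the rbm14 libraries 30 of 35 such genes had ratios above 0 (median 1.54, against 0.63 over all 15116 genes).

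Genes of other cell types and of stress moved beside these differences at 24 hpf. Of 19 erythroid genes 15 reached 5 TPM, and 8 were lower and none higher (median −0.97, and −0.36 without rescaling). Of all genes reaching 5 TPM, 7.01% were higher and 8.85% lower. The summed deposited TPM of the erythroid genes went from 11326 to 3882. Of 11 inflammatory genes 5 reached 5 TPM (median 0.92 over the 7 at 1 TPM or more, and 1.54 without rescaling). Among them 2 were higher, fosl1a (1.57 and 25.9 TPM) and ptgs2b (1.25 and 5.66 TPM), and 1 was lower, the NF-kappaB inhibitor gene nfkbiaa (8.87 and 5.36 TPM). Of 9 hemangioblast and blood progenitor genes 6 reached 5 TPM and none was past the rule (median 0.02 over 8 genes, −0.01 with loess and 0.61 without rescaling). The summed deposited level of the 9 genes went from 90.3 to 146 TPM, without the log2 shift of 0.64 between these libraries being removed. Of 18 endothelial genes 9 reached 5 TPM, and 1 was higher, kdr, and 1 lower, tek (median 0.13 over 14 genes, and 0.76 without rescaling). The part of these genes in the low lyz and mpx levels was not tested.

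Tissues that also use some of the 8 genes were read the same way, beside 7.01% of all genes higher and 8.85% lower at 24 hpf. So were lists of muscle, neuron and p53 response genes, which were not chosen as sites of the 8 genes. Of 9 genes used for yellow pigment cells, the other site of csf1ra, 3 reached 5 TPM (median −1.26 over the 6 at 1 TPM or more, and −0.72 without rescaling). Of these 3, 1 was higher (mycbp2, which other tissues use too) and 1 lower, the pteridine gene gch2 (88.5 and 15.7 TPM). Counts this small do not stand apart from the shares of all genes. The summed deposited level of the 9 genes went from 129 to 58.8 TPM. The fall in gch2 alone was larger than the fall in this sum, which thus reports on that gene and not on the others. Of 16 genes of the yolk syncytial layer and liver, the liver being a site of C/EBP genes in mammals, 14 reached 5 TPM at 24 hpf. Of these 6 were lower and 1, hnf4a, was higher (median −0.95 over 15 genes, 0.06 with loess and −0.31 without rescaling). At 10 hpf 11 reached 5 TPM, and 4 were lower and none higher (median −0.72 over 13 genes), where 5.56% of all genes were lower and 3.57% higher. The summed deposited level of the 16 genes went from 4816 to 2815 TPM at 10 hpf, where the ratio was 0.42 for cebpa, −0.08 for cebpb and −1.24 for lcp1. Of 15 muscle genes all reached 5 TPM and 10 were lower at 24 hpf (median −1.60, −0.96 without rescaling and −0.91 with loess). Of 11 neuron genes 5 reached 5 TPM, and 1 was higher, elavl3, and 1 lower, gng3 (median −0.59 over 9 genes, and −0.03 without rescaling). Of 12 genes of the p53 response and apoptosis 10 reached 5 TPM and all 10 were higher (median 3.11 over 11 genes, and 3.75 without rescaling). None of these lists had a member listed at 0 at 24 hpf, and their part in the values of the 8 genes was not tested.

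Genes with patterns most like those of mpx and lyz were taken from 8527 genes by the distance between their scaled log2 levels over the 4 libraries, each centred on its own mean. Nearest to mpx were the lens crystallin gene cryba4 (0.30, 0.20, 5.69 and 0.43 TPM, in the order control 10 hpf, rbm14 10 hpf, control 24 hpf and rbm14 24 hpf, distance 0.29), the apolipoprotein gene apoa4b.3 (0.44) and the crystallin gene cryba1l1 (0.47). Nearest to lyz were the fin fold gene and1 (0.89, 0.65, 24.5 and 3.49 TPM, distance 0.49), the melanin synthesis gene tyrp1b (0.51) and the crystallin gene crybb1l2 (0.57). Each pattern, a low 10 hpf level and a high level in the 24 hpf control alone, was thus shared with genes of other tissues over these 4 libraries. Myeloid genes under 5 TPM, such as mfap4 (0.02, 0, 3.88 and 0.19 TPM in the same order), were not among the candidates. The nearest genes therefore cannot show whether the patterns lie mainly outside myeloid cells. Among the 8 genes themselves mpx and lyz were each other's nearest (1.13), whereas lcp1 was farther from its nearest, cebpb, at 2.72. The mean profile of the 8 genes was nearly flat, since its members differ in direction, and lay nearest to atp5g3a, myeov2, tuba8l, dusp16 and sos1 (distances 0.05 to 0.15).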

How the data were processed

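The authors deposited 4 tables of TPM, listing 57596 Ensembl transcripts of poly(A) RNA beside their gene symbols. That the values are TPM was read from the tables, which sum to 1000000 per library. The submitters' processing notes name Trimmomatic (0.30), HISAT2 (2.0.1), HTSeq (0.6.1) and the build GRCz10, without their roles. What tool estimated transcript values, with which annotation and strand setting, is not given in the sources used here. Depth is lost in TPM, so the precision of a value is unknown.

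TPM was summed by symbol. Each pair of libraries was scaled by the unweighted mean log2 ratio of genes at 1 TPM or more in both, after 30% of ratios and 5% of levels were trimmed at each end, and 0.5 TPM was added (Python 3.11.15, pandas 2.3.3, numpy 2.4.6). List medians use genes at 1 TPM or more in either library, genes at 0 included. Of 203 listed genes 191 matched by symbol, 1 by a synonym and 11 did not. Outside the 8 genes, the nearest profiles are named by a fixed rule. A rule for naming list genes past the size rule at 24 hpf was followed only in part. None is named of the erythroid, muscle and p53 lists, and only the higher gene, hnf4a, of the yolk syncytial layer and liver list. The text names rac2, cd63 and cyba, past the size rule in other comparisons, and list genes under it, after their values were seen. Genes and lists were chosen with earlier results of these data known. No sequences were used here, and a planned motif search was not run.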

Additional observations from a re-analysis of the deposited data

Results flagged for a closer look

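The ratios of rbm14 over control had opposite signs at the 2 stages for 2 of the 8 genes under the scaling used. The genes mpx, lyz and csf1ra could not be compared so, because they were listed at 0 in the rbm14 library at 10 hpf. Without rescaling lcp1 had opposite signs as well (−1.49 at 10 hpf and 0.31 at 24 hpf), and with the most abundant transcript in place of the sum spi1b did not (0.02 and 0.21). For coro1a the ratio was 0.59 at 10 hpf and −1.13 at 24 hpf, a difference of −1.72 on the log2 scale. For spi1b it was −0.19 at 10 hpf and 0.44 at 24 hpf, a difference of 0.62. Neither difference was tested, since each group is 1 library, and both genes were under 5 TPM in all 4 libraries.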

How the results depend on the processing

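Alternatives were no rescaling, median-of-ratios and loess scaling, 0.1, 1 or 5 TPM added, no minimum or a minimum of 20 TPM, and the most abundant transcript per gene. The genes mpx (−1.20 to −4.36) and lyz (−1.76 to −3.31) kept ratios beyond 2-fold at 24 hpf under each that gave a value, and mpx gave none with its most abundant transcript, which was listed at 0. With a minimum of 20 TPM only 1 of the 8 genes, cebpb, was lower at 24 hpf, and 0 were higher between the control stages, because mpx and lyz do not reach it. With no minimum 4 were higher between the control stages and 2 between the rbm14 stages, coro1a and spi1b being added. With the most abundant transcript 0 were lower at 10 hpf, and 1 was higher between the control stages. No called ratio of the 8 genes changed sign. No paired analysis was possible because each group has 1 library. Depth is unknown, so the error of values under about 1 TPM cannot be given.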
